A study of Mus musculus with 4 samples.

Results

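Cardiac macrophage marker genes are transcripts that the heart's resident and recruited macrophages make in quantity. They were followed here in RNA from cells labelled as endothelial. They were chosen by symbol, as all non-control probes whose accession RefSeq assigns to 1 of 10 named genes. Of these 10, 9 had a probe (Tyrobp, C1qa, C1qb, C1qc, Lyz1, Lyz2, Mrc1, Csf1r and Cd163), out of 18353 genes with a symbol on the array. Cd68 matched none, so its expression was not measured here and it enters only the promoter counts. The 9 genes have 11 probes, 3 of them for Csf1r, all of which were tested, and the leading probe of each gene was well above background on all 4 arrays.

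Agilent 1-colour arrays measured Cy3-labelled cRNA made from total RNA of endothelial cells of adult mouse hearts, 1 array per sample. The control group holds 2 arrays from mice labelled wild type, and the G2-EC-KO group holds 2 arrays from mice labelled as a Gata2 knock out. The promoter that drives the deletion, what the control mice carry besides the wild type label, the sex of the mice, how the cells were isolated and whether animals were pooled are not given in the sources used here. Whether replicates are different animals is not in the labels, so p-values cover only how these samples vary, which for the G2-EC-KO pair may be technical. By Y-linked transcripts, given below, control replicate 2 held male RNA, and the other arrays had no such signal well above background. The control pair were therefore not repeats of 1 RNA. The question of the comparison is how transcripts of cardiac endothelial cells differ between G2-EC-KO and control mice.

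Macrophages are the most numerous leukocytes of the healthy heart and lie close to its capillaries. They depend on signals through the CSF1 receptor, clear dying cells and debris, and secrete C1q, the recognition part of the first component of complement. The genes below follow that order of roles: the signalling adaptor and receptor, the C1q chains, the lysozymes and the scavenger receptors.

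Promoter sequence from RefSeq is shown for a few of these genes, to set how alike the lysozyme pair is and where a myeloid motif lies. Of the 9 measured genes and Cd68, 7 have an entry in the RefSeq promoter table of assembly GRCm38.p6, the others being Tyrobp, C1qa and Csf1r. The first pair are the 120 bases before the start of the lysozyme genes Lyz1 (chr10:117292869-117292988, minus strand) and Lyz2 (chr10:117282273-117282392, minus strand), which are neighbours with 0 protein-coding genes between them. Capitals mark the 9 positions where they differ, while 111 positions are the same.

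Lyz1: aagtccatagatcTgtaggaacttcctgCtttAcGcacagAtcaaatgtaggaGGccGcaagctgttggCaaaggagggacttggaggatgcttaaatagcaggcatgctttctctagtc

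Lyz2: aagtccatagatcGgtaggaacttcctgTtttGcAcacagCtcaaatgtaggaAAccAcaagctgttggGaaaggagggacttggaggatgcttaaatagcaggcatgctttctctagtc

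Over 250 bases before the start the pair had an identity of 82.0% in a global alignment. Other pairs of the 7 lay between 53.2% and 59.6%. The other stretches are from C1qb (chr4:136886201-136886320, minus strand) and Mrc1 (chr2:14229294-14229413, plus strand), with capitals on the letters GAGGAA, or TTCCTC on the other strand, the core recognised by PU.1, the transcription factor that directs myeloid development.

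C1qb: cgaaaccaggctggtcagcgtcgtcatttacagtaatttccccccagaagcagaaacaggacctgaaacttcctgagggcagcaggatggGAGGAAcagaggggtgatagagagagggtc

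Mrc1: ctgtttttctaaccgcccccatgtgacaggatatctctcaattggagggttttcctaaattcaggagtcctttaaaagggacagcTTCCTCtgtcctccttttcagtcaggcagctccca

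These letters, searched on both strands in 250 bases, were in 4 of the 7 genes, C1qb, C1qc, Cd68 and Mrc1, and in 23.3% of all 32851 promoter windows of that length. The letters AGATAA, the only form of the GATA motif searched, were in 0 of the 7 and in 9.99% of all windows. Other forms of that motif were not searched, so the count does not show that these promoters lack it. The C/EBP letters TTGCNNAA were in 2 of the 7, Lyz1 and the unmeasured Cd68, and in 9.56% of windows. The AP-1 letters TGANTCA were in 1 of the 7, Cd68, and in 6.75%, and the TATA box letters TATAAA in 0 of the 7 and in 12.4%. A match describes letters in a window and does not show a site in use, and no match says nothing about the factor.

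Levels are given as the log2 of the processed signal above the 75th percentile of the same array, so that 0 is the level of that percentile. They compare arrays for 1 probe and not 1 gene with another. In bulk RNA, fewer macrophages and less macrophage RNA per cell cannot be told apart. Between 63.8% and 66.5% of probes passed the scanner's test for signal well above background on each array, and 0 spots were saturated. The arrays took positions 1 to 4 of 1 slide, the controls in positions 1 and 2 and G2-EC-KO in 3 and 4, so position and group cannot be told apart. The control arrays stood apart from each other: the 4 Y-linked genes Ddx3y, Eif2s3y, Kdm5d and Uty were well above background on control replicate 2 and on no other array, with Ddx3y at 2.38 there and at -7.61, -6.99 and -8.01 on control replicate 1 and the G2-EC-KO arrays. The targeted gene Gata2 was not lower on the arrays labelled G2-EC-KO, with 1.86 and 2.17 in control and 2.16 and 2.46 in G2-EC-KO at probe A_51_P516625 (log2 change 0.30, SE 0.18; limma, adjusted p = 0.585), and probe A_52_P233441 had a log2 change of 0.18. Where these probes lie relative to the deleted part is not given in the sources used here, so they do not check the labels, and every direction below rests on them.

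All 9 macrophage marker genes had a fitted log2 change above 0 in G2-EC-KO, with a median of 0.33, or 1.26-fold at C1qa, the gene at that median, but none passed the test and the positive sign of most rested on 1 control array. Over all 26900 probes tested the median was 0.00036 and 50.1% lay above 0. The marker genes read lowest on control replicate 1, and control replicate 2 read about as high as the G2-EC-KO arrays. The count past an adjusted p of 0.05 was 0 of 9 (limma), against a background of 0.00372% of probes, and at an unadjusted p under 0.05 it was 1 of 9, Tyrobp, against 9.61%. Values of the 2 groups did not overlap for 2 of 9, Tyrobp and C1qb, against 46.4% of all probes. Without control replicate 1 the median log2 change was -0.045 and 3 of 9 changes lay above 0, and without control replicate 2 the median was 0.67 with 9 of 9 above 0. Only control replicate 2 had Y-linked signal, so leaving out control replicate 1 sets an array with it against arrays without it. Sex and other differences between the control arrays cannot be told apart. With 2 arrays a group the smallest two-sided p of an exact permutation test is 0.333, and tests below are limma's.

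**Figure D1:**
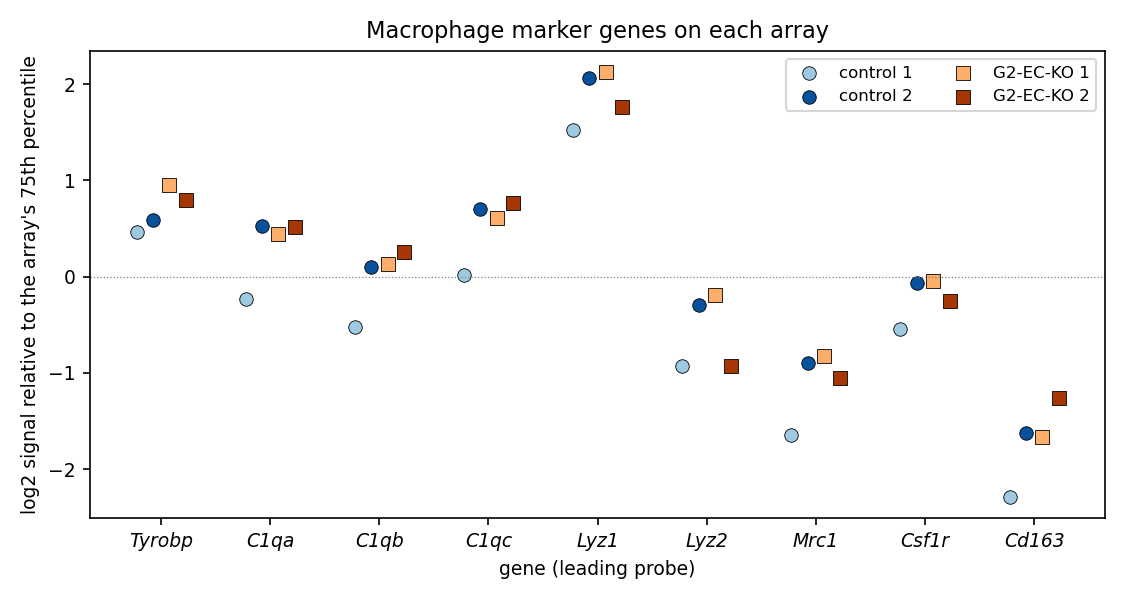
Each point is 1 gene (x axis) on 1 array, as log2 signal relative to that array's 75th percentile (y axis), circles for control and squares for G2-EC-KO. Control replicate 1 is the lowest of the 4 arrays for 8 of the 9 genes, and G2-EC-KO replicate 2 is the lowest for Lyz2, at -0.93.

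Tyrobp (probe A_51_P261517) encodes DAP12, the adaptor that passes signals from myeloid receptors such as TREM2 to the kinase SYK. Control replicates 1 and 2 gave 0.46 and 0.59, and G2-EC-KO replicates 1 and 2 gave 0.95 and 0.79. Both G2-EC-KO arrays lay above both control arrays, and this gene had the narrowest interval of the 9. Control averaged 0.53 ± 0.094 (SD, n = 2) and G2-EC-KO averaged 0.87 ± 0.11 (SD, n = 2). Their difference of 0.35 on the log2 scale had an SE of 0.13 and a 95% confidence interval from 0.018 to 0.68 (limma, adjusted p = 0.512). Of the 9 genes Tyrobp differed least between the control arrays, by 0.13. With any 1 array removed, its log2 change was 0.27 to 0.43.

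Csf1r encodes the receptor for CSF1 and IL-34, on which macrophage survival depends. Its brightest probe, A_51_P365885, gave -0.55 and -0.063 in control and -0.042 and -0.25 in G2-EC-KO. Control replicate 1 was lowest, the other 3 arrays lay within 0.21 of each other, and the groups overlapped. With means of -0.31 ± 0.34 (SD, n = 2) and -0.15 ± 0.15 (SD, n = 2), the difference was 0.16 (SE 0.20, interval -0.38 to 0.70; limma, adjusted p = 0.773), and without control replicate 1 it was -0.085. Probe A_52_P602091 gave -2.25 and -1.61 in control and -1.68 and -2.11 in G2-EC-KO, a log2 change of 0.034 (SE 0.28). The dimmest, A_52_P570471, was well above background only on control replicate 2 and G2-EC-KO replicate 1, where it gave -4.00 and -4.65, and its log2 change of -0.19 (SE 1.05) had the opposite sign. All 3 probes were higher on control replicate 2 and on G2-EC-KO replicate 1 than on the other array of the same group.

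C1qa, C1qb and C1qc (probes A_51_P181451, A_51_P351860 and A_51_P102789) encode the A, B and C chains of C1q, which binds antibody complexes and dying cells and starts the classical complement pathway. They are neighbours on mouse chromosome 4, with 0 other protein-coding genes between them. C1qa gave -0.24 and 0.53 in control and 0.44 and 0.52 in G2-EC-KO. C1qb gave -0.52 and 0.099 in control and 0.13 and 0.26 in G2-EC-KO. C1qc gave 0.019 and 0.70 in control and 0.61 and 0.77 in G2-EC-KO. For each chain control replicate 1 stood alone at the low end and the other 3 arrays lay close together, and the groups overlapped for C1qa and C1qc but not for C1qb.

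Control means of C1qa, C1qb and C1qc were 0.15 ± 0.54, -0.21 ± 0.44 and 0.36 ± 0.48 (SD, n = 2), and G2-EC-KO means were 0.48 ± 0.054, 0.19 ± 0.092 and 0.69 ± 0.11 (SD, n = 2). The SD of each chain was thus larger in control than in G2-EC-KO. Log2 changes were 0.33 (SE 0.28) for C1qa, 0.41 (SE 0.23) for C1qb and 0.325 (SE 0.25) for C1qc, none past the threshold (limma, adjusted p = 0.660, 0.578 and 0.645). Their 95% confidence intervals ran from -0.40 to 1.06, from -0.21 to 1.02 and from -0.35 to 0.997. Without control replicate 1 the changes were -0.052, 0.095 and -0.016, so that C1qa and C1qc turned sign.

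Lyz1 and Lyz2 (probes A_52_P582059 and A_51_P321150) encode lysozymes, enzymes that cut bacterial cell walls, with Lyz2 the form best known from macrophages and neutrophils and Lyz1 that of Paneth cells. The pair are close copies, and probe sequences were not used here, so how far each probe also reads the other transcript was not tested. Lyz1 gave 1.52 and 2.06 in control and 2.13 and 1.76 in G2-EC-KO. Lyz2 gave -0.92 and -0.29 in control and -0.19 and -0.93 in G2-EC-KO. In each group 1 array was high and 1 low, and the groups overlapped.

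Lyz1 had a control mean of 1.79 ± 0.39 (SD, n = 2) and a G2-EC-KO mean of 1.95 ± 0.26 (SD, n = 2), a log2 change of 0.15 (SE 0.24, interval -0.48 to 0.79; limma, adjusted p = 0.812). Lyz2 had means of -0.61 ± 0.45 (SD, n = 2) and -0.56 ± 0.52 (SD, n = 2), a log2 change of 0.0495 (SE 0.34, interval -0.84 to 0.94; limma, adjusted p = 0.960). These were the smallest changes of the 9. Their sign turned without control replicate 1, to -0.12 and -0.27, and without G2-EC-KO replicate 1, to -0.028 and -0.32.

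Mrc1 (probe A_51_P439248) encodes the mannose receptor CD206 and Cd163 (probe A_51_P231042) the receptor for haemoglobin bound to haptoglobin, both scavenger receptors of resident macrophages. Mrc1 gave -1.65 and -0.89 in control and -0.82 and -1.05 in G2-EC-KO. Cd163 gave -2.28 and -1.62 in control and -1.66 and -1.26 in G2-EC-KO. Control replicate 1 was lowest for both and the groups overlapped for both. Mrc1 had means of -1.27 ± 0.53 (SD, n = 2) and -0.94 ± 0.16 (SD, n = 2), a log2 change of 0.33 (SE 0.28, interval -0.41 to 1.07; limma, adjusted p = 0.665), and -0.045 without control replicate 1. Cd163 had the largest change of the 9, 0.49 (SE 0.28, interval -0.24 to 1.22; limma, adjusted p = 0.577), between means of -1.95 ± 0.47 (SD, n = 2) and -1.46 ± 0.28 (SD, n = 2), and 0.16 without control replicate 1.

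**Figure D2:**
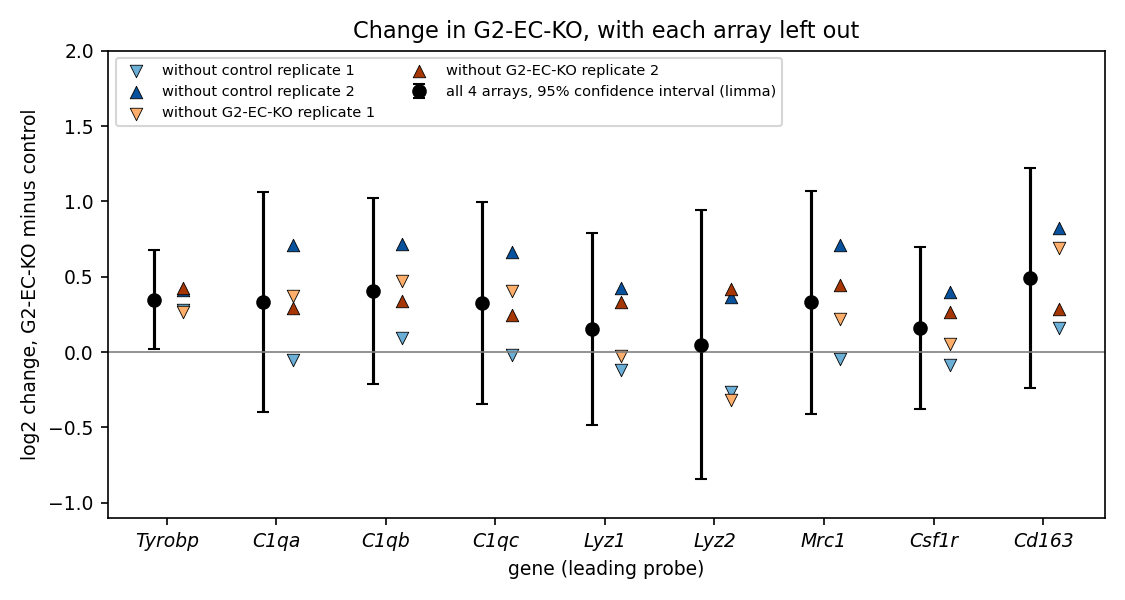
Black circles are the log2 change of each gene (x axis) over all 4 arrays with its 95% confidence interval from limma (y axis), and triangles are the change with 1 array left out. The interval of Tyrobp, from 0.018 to 0.68, is the 1 of 9 that does not cross 0, and without control replicate 1 the changes of 6 genes lie below 0.

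Between the control arrays, the difference ran the same way in all 9 genes. Control replicate 2 read above control replicate 1 by a median of 0.63 on the log2 scale, from 0.13 at Tyrobp to 0.77 at C1qa, or 1.1-fold to 1.7-fold. The median of the same difference over all probes tested was -0.0046, with an SD of 0.36. At least 1.3-fold was reached by 8 of 9 genes, against 4.72% of all probes, a threshold set after the values were seen. Control replicate 1 was the lowest of the 4 arrays for 8 of 9, against 25.1% of all probes. These are comparisons of 1 array with 1 array and have no test, and the control arrays also differed in Y-linked signal. The genes were also chosen with earlier results of these arrays known.

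Control replicate 2 was not set apart from the G2-EC-KO arrays. It lay between them for 6 of the 9 genes, above both for C1qa and below both for Tyrobp and C1qb. The share of all probes with such positions was not computed, so whether these counts are unusual is not known. The difference between the groups was smaller than the difference between the control arrays for 8 of the 9, with Tyrobp as the exception. The control mean takes in control replicate 1, so this count follows in part from the low values of that array and is no separate result.

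Between the G2-EC-KO arrays the genes parted in direction. Replicate 1 read above replicate 2 for 5 genes, Tyrobp, Lyz1, Lyz2, Mrc1 and Csf1r, and replicate 2 read above replicate 1 for the 3 C1q genes and Cd163. The differences, replicate 2 minus replicate 1, ran from -0.74 at Lyz2, -0.36 at Lyz1 and -0.23 at Mrc1 to 0.16 at C1qc and 0.40 at Cd163, with a median of -0.16 against 0.019 over all probes. Lyz2 was the 1 gene of 9 for which replicate 1 exceeded replicate 2 by 1.3-fold or more, at 1.67-fold, against 11.1% of all probes. The lysozymes and Cd163 thus lay at opposite ends on the same pair of arrays, with no test of that difference.

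**Figure D3:**
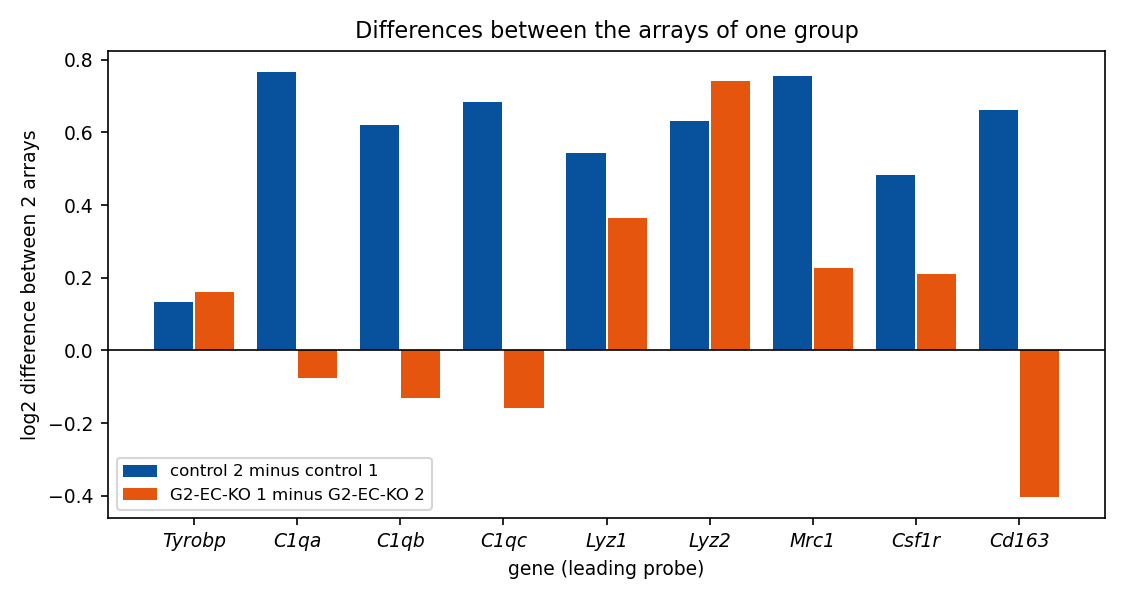
Bars are the log2 difference between the 2 arrays of a group (y axis) for each gene (x axis), blue for control replicate 2 minus replicate 1 and orange for G2-EC-KO replicate 1 minus replicate 2. All 9 blue bars are above 0, while 5 orange bars are above 0 and 4 below.

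Other macrophage and monocyte genes, from a list that was also drawn up with earlier results known and so is no independent evidence, numbered 22. All 22 were tested, 0 passed in either direction (limma; 2 at an unadjusted p under 0.05), 20 had a log2 change above 0 and the median was 0.346. Control replicate 1 was the lowest array for 18 of 22, and without it 14 of 22 changes lay above 0, with a median of 0.125. Pf4, a chemokine of platelets that resident macrophages also make and the brightest of the list, gave 1.49 and 2.06 in control and 2.32 and 2.24 in G2-EC-KO, a difference of 0.51 (SE 0.22; limma, adjusted p = 0.537). Cbr2, a carbonyl reductase and the gene of the smallest p, gave 0.51 and 0.70 in control and 1.45 and 1.10 in G2-EC-KO, a difference of 0.67 (SE 0.17; limma, adjusted p = 0.413). For both genes the groups did not overlap, and neither passed.

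Transcription factors of macrophages numbered 8, of which 7 were tested and 0 passed (limma; 1 at an unadjusted p under 0.05), with 4 changes above 0 and a median of 0.017. Control replicate 1 was the lowest array for 4 of 7, and without it 0 of 7 changes lay above 0, with a median of -0.118. Spi1, which encodes PU.1, was well above background on 0 of 4 arrays and was not tested. Irf8, an interferon regulatory factor and the brightest, had a log2 change of -0.14 (SE 0.155), and Cebpa, of the C/EBP family and with the smallest p, one of -0.59 (SE 0.21; limma, adjusted p = 0.512).

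Ligands of the CSF1 receptor and related receptors numbered 5, of which 0 passed (limma; 0 at an unadjusted p under 0.05), with 2 changes above 0, or 3 without control replicate 1, which was the lowest array for 0 of 5. Csf1, a ligand of CSF1R and the brightest, gave 3.63 and 3.65 in control and 3.69 and 3.08 in G2-EC-KO, a difference of -0.26 (SE 0.23). It was low on G2-EC-KO replicate 2 alone. Csf2rb, the common beta chain of several cytokine receptors, had the smallest p and a difference of -0.355 (SE 0.25). All 5 genes were lower on G2-EC-KO replicate 2 than on replicate 1, with a median difference of -0.52.

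Partners of TYROBP and of the FcR gamma chain with a probe numbered 8, of which 7 were tested and 0 passed (limma; 0 at an unadjusted p under 0.05), with 5 changes above 0 and a median of 0.13. For 3 of 7 the lowest array was control replicate 1, and 5 changes were also above 0 without it. Fcer1g, the FcR gamma chain itself and the brightest, gave 0.50 and 0.53 in control and 0.78 and 0.51 in G2-EC-KO, a difference of 0.13 (SE 0.14). Clec5a, a receptor that signals through DAP12 and the gene of the smallest p, had a difference of 0.55 (SE 0.27). Cd300lb was well above background on 0 arrays.

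A list drawn up around the C1 complex and classical pathway, outside C1q, held 9 genes. It included C1qbp, Cd93 and Calr, which are not components of that pathway. Of the 9, 0 passed (limma, with 1 at an unadjusted p under 0.05), with 4 changes above 0 and a median of -0.027. Without control replicate 1, the lowest array for 4 of 9, these were 5 and 0.049. Cd93, a receptor of endothelial and myeloid cells and the brightest, had a difference of 0.20 (SE 0.12), and C2, a component that C1s cleaves, had the smallest p and one of 0.345 (SE 0.12; limma, adjusted p = 0.512). Of 12 lysosome and phagosome genes 0 passed (limma; 0 at an unadjusted p under 0.05), with 9 changes above 0 and a median of 0.048. Control replicate 1 was the lowest array for 7 of 12 of these, and without it 6 changes lay above 0, with a median of -0.012. The cathepsin genes Ctsl, the brightest, and Ctss, of the smallest p, had differences of -0.097 (SE 0.15) and 0.26 (SE 0.13). Of 8 genes of haem and iron handling 0 passed (limma; 0 at an unadjusted p under 0.05), with 4 above 0 and a median of -0.035, or 2 and -0.0745 without control replicate 1, the lowest array for 2 of 8. Fth1, the ferritin heavy chain and the brightest, had a difference of 0.034 (SE 0.12), and Slc11a1, a metal transporter of phagosomes with the smallest p, one of -0.29 (SE 0.14).

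By their pattern over the 4 arrays, 5 genes outside all lists lay nearest to the median profile of the 9 members, which was -0.50, 0.18, 0.18 and 0.093 around each gene's own mean. They were Wfdc17, the small GTPase gene Rab7b, the C-type lectin gene Mgl2, the ATP-gated channel gene P2rx5 and the BCL2 family gene Bcl2a1c, which has close copies that its probe may also read. Their root mean square distances over 4 arrays were 0.032, 0.052, 0.054, 0.055 and 0.057 on the log2 scale, out of 3070 genes compared. The members themselves lay between 0.058, at Mrc1, and 0.26, at Lyz2. The 5 genes were picked for closeness and the members were not, so their smaller distances do not show a better match. Wfdc17 gave -1.32 and -0.57 in control and -0.56 and -0.64 in G2-EC-KO. This likeness over 4 arrays is a description and has no test.

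Endothelial genes, which the labelled cell type should hold, were well above background on all 4 arrays for 12 of 12, with a median log2 change of -0.030 and a median difference between control replicate 2 and replicate 1 of 0.12. The brightest, the VEGF receptor gene Flt1, gave 6.53 and 6.53 in control and 6.58 and 6.50 in G2-EC-KO, and Tek, the angiopoietin receptor gene of the smallest p, had a log2 change of -0.24 (SE 0.11). The summed level of the list, in multiples of each array's 75th percentile, was 533.7 and 587.2 in control and 544.2 and 552.3 in G2-EC-KO. Such sums compare arrays within a list and not lists with each other. That of the 9 macrophage genes, of which Lyz1 gave the largest part on each array, was 8.538 and 12.47 in control and 13.01 and 11.72 in G2-EC-KO.

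How often control replicate 1 was the lowest array differed from list to list, with 25.1% of all probes as the background. It was lowest for 5 of 8 fibroblast, 4 of 9 cardiomyocyte, 4 of 12 endothelial, 3 of 6 erythroid and platelet, 1 of 3 mast cell and 2 of 8 pan-leukocyte genes. Of the tested granulocyte, T and NK, B, dendritic and pericyte genes it was lowest for 0. The difference between these lists and the macrophage genes was not tested. Granulocyte genes had a median difference of -0.93 between control replicate 2 and replicate 1, with 1 of 7 higher on replicate 2 and a summed level of 12.89 and 6.817 in control and 14.12 and 9.666 in G2-EC-KO. Camp, Elane and Mmp8 were well above background on 0 arrays. The brightest, S100a9, gave the largest part of that sum on each array and had a log2 change of 0.35 (SE 0.38). Mpo, of the smallest p, had one of -0.445 (SE 0.27), or 0.0075 with normexp background correction. It was well above background only on control replicate 2 and G2-EC-KO replicate 2.

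B cell genes had a median difference of -1.02 between the control arrays, with 0 of 5 higher on replicate 2, a summed level of 0.9813 and 0.4311 in control and 0.562 and 0.5797 in G2-EC-KO, and Pax5 and Blk well above background on 0 arrays. Cd79b, a chain of the B cell receptor and the brightest, and Cr2, of the smallest p, had log2 changes of -0.13 (SE 0.55) and -0.36 (SE 0.14). T and NK cell genes had a median difference of -0.29, with 2 of 8 higher on replicate 2, a summed level of 1.394 and 0.9659 in control and 1.261 and 0.8535 in G2-EC-KO, and Cd3g and Cd8a well above background on 0 arrays. Lck, a kinase of T cells and the brightest, and Gzmb, of the smallest p, had log2 changes of -0.092 (SE 0.29) and -0.675 (SE 0.32).

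Dendritic cell genes had a median difference of -0.69, with 1 of 4 higher on replicate 2, a summed level of 1.224 and 1.07 in control and 1.091 and 0.7838 in G2-EC-KO, and Cd209a well above background on 0 arrays. Zbtb46, the brightest, gave the largest part of that sum on each array. Zbtb46 and Xcr1, of the smallest p, had log2 changes of -0.37 (SE 0.24) and -0.61 (SE 0.26). Genes of all leukocytes had a median difference of -0.10, with 3 of 8 higher on replicate 2. Their summed level, of which Arhgdib gave the largest part on each array, was 9.604 and 10.48 in control and 11.99 and 11.9 in G2-EC-KO. Arhgdib, the brightest, and Cd52, of the smallest p, had log2 changes of 0.30 (SE 0.16) and 0.34 (SE 0.14). Changes above 0 with and without control replicate 1 numbered 5 and 6 of 7 for granulocyte, 1 and 4 of 5 for B cell, 1 and 5 of 8 for T and NK cell, 1 and 2 of 4 for dendritic cell and 7 and 7 of 8 for pan-leukocyte genes. In these lists 0 genes passed (limma; 0 at an unadjusted p under 0.05), and their part in the macrophage values was not tested.

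Mast cell genes were near background, with Cpa3, Tpsb2 and Ms4a2 well above it on 0 arrays and a summed level of 0.08134 and 0.07281 in control and 0.1456 and 0.1096 in G2-EC-KO. Cma1, a mast cell protease and the brightest, had a log2 change of 0.60 (SE 0.18), and Mcpt4, of the smallest p, reached that level in G2-EC-KO only, where it was at least 1.69-fold higher, taking the dimmest signal well above background as the control level (limma, adjusted p = 0.387). Erythroid and platelet genes had a summed level of 86.24 and 75.17 in control and 149.1 and 78.73 in G2-EC-KO, highest on G2-EC-KO replicate 1. Nearly all of that sum came from Hba-a1 on each array, so it says little about the platelet genes. Hba-a1, a haemoglobin chain and the brightest, had a log2 change of 0.43 (SE 0.33), and the platelet gene Gp9, of the smallest p, one of 0.84 (SE 0.48). Between the control arrays the list split, with 3 of 6 genes higher on replicate 2 and a median difference of 0.0945. The platelet genes Gp9, Ppbp and Itga2b were higher there, by 1.35, 1.43 and 0.39, and were lowest on control replicate 1. The largest such difference among the macrophage members was 0.77. The erythroid genes Hba-a1, Alas2 and Slc4a1 were lower, with differences of -0.20, -0.30 and -0.35.

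Cardiomyocyte genes had 9 of 9 changes above 0, a median of 0.26 and a summed level of 82.55 and 90.12 in control and 94.67 and 114.5 in G2-EC-KO. The brightest, Actc1, and Myl2, of the smallest p, which encode sarcomere proteins, had log2 changes of 0.12 (SE 0.13) and 0.36 (SE 0.20). Fibroblast genes had 7 of 8 changes above 0, a median of 0.215 and a summed level of 86.59 and 111.4 in control and 114.9 and 114.5 in G2-EC-KO. The matrix proteoglycan genes Dcn, the brightest, and Lum, of the smallest p, had log2 changes of 0.12 (SE 0.21) and 0.87 (SE 0.14; limma, adjusted p = 0.387). Without control replicate 1, 9 of 9 cardiomyocyte, 5 of 8 fibroblast, 6 of 6 erythroid and platelet and 4 of 12 endothelial changes lay above 0, the last against 6 of 12 with it.

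Pericyte and smooth muscle genes had 1 of 7 changes above 0, a median of -0.115 and a summed level of 308 and 278.4 in control and 319.2 and 227.5 in G2-EC-KO. The contractile genes Acta2, the brightest, and Myh11, of the smallest p, had log2 changes of -0.146 (SE 0.24) and -0.48 (SE 0.33). Among mast, erythroid and platelet, cardiomyocyte, fibroblast, pericyte and endothelial genes 0 passed (limma; 2 mast cell and 2 fibroblast genes at an unadjusted p under 0.05, 0 in the other lists), and their part in the macrophage values was not tested.

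**Figure D4:**
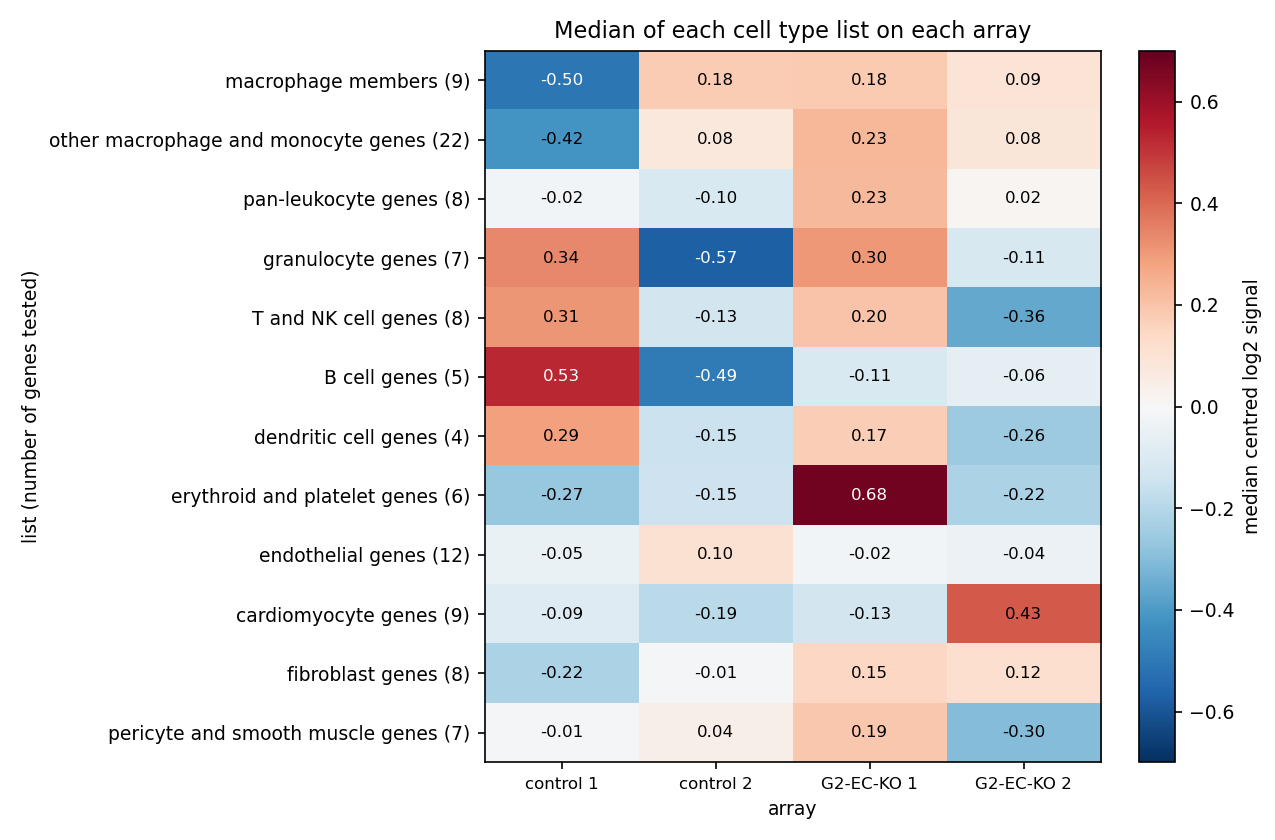
Each cell gives the median over the tested genes of a list (rows, number of genes in brackets) of the log2 signal on 1 array (columns) after subtracting each gene's mean over the 4 arrays. The macrophage members stand at -0.50 on control replicate 1 and at 0.18, 0.18 and 0.093 on the other arrays, while B cell genes stand at 0.53 on the first control array and at -0.49 on the second.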

How the data were processed

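The authors deposited linear spot intensity values from Agilent Feature Extraction. Background subtraction and spatial and multiplicative detrending are recorded per the file headers, and arrays were not scaled to each other. The headers give version 10.7.3.1, design 014868 and build mm9, and the submitters' processing notes name version 10.5. Control spots and 87 to 101 outlier spots per array were left out, and log2 signals were set relative to the array's 75th percentile, averaging spots of a probe. Symbols came by accession from RefSeq (GRCm38.p6), which named 26933 of 41174 probes. The probe with the highest mean leads a gene.

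The 26900 probes well above background on at least 2 arrays were fitted with limma 3.58.1 in R 4.3.3 (lmFit and eBayes on group, two-sided, Benjamini-Hochberg at 0.05, 2 residual and 2.58 prior degrees of freedom), after the script was tested on simulated data. Precision is limited by having 2 arrays a group. The members and lists were chosen with earlier results of these data known. The text names all members, the brightest gene and the gene of the smallest p of each list, defining markers not well above background, Gata2 and the 5 nearest profiles; the 1.3-fold threshold, the count of genes lowest on control replicate 1 and the Y-linked genes were chosen after values were seen. Alternatives were normexp with an offset of 50 (on the median signal, since no mean signal is in the files), quantile normalization, median centring, other filters on dim probes, the deposited value table, an intensity trend, the replicate number as a block, other probes of a gene, leaving out both lysozymes and leaving out each array. The deposited table equals the median signal minus the local background plus 16 on all 45018 rows, so it is linear and not centred. Its column medians were 154, 151, 135.5 and 126.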

Additional observations from a re-analysis of the deposited data

How the results depend on the processing

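The count of member genes past the threshold was 0 under every alternative run, and the median log2 change of the members stayed between 0.27 and 0.67 except without control replicate 1, where it was -0.045 and 3 of 9 changes were above 0, so these 2 values range from -0.045 to 0.67 and from 3 to 9 when 1 array is left out. Without control replicate 1 the sign turned for C1qa (-0.052), C1qc (-0.016), Lyz1 (-0.12), Lyz2 (-0.27), Mrc1 (-0.045) and Csf1r (-0.085), without G2-EC-KO replicate 1 for Lyz1 (-0.028) and Lyz2 (-0.32), and at the dimmest Csf1r probe (-0.19), where fewer samples enter or another probe is read. Over the 4 fits that leave out 1 array, changes reached 0.821 for Cd163 (from 0.16), 0.716 for C1qb (from 0.095), 0.714 for C1qa, 0.667 for C1qc, 0.426 for Lyz1, 0.42 for Lyz2, 0.71 for Mrc1 and 0.40 for Csf1r. Over all probes, 1 was called, against 2 with normexp, quantile normalization or median centring, 0 without a filter on dim probes, with a filter on all 4 arrays, with an intensity trend or with the replicate block, and 0 to 8 when 1 array was left out, with 8 without control replicate 1; the cause was not tested. With the replicate block the members' median was 0.33 and 0 members passed; the correlation of same-numbered arrays' deviations was 0.044, so the numbers were not taken to pair samples. Between the control arrays the members' median difference was 0.59 to 0.68 under the other scalings, with 9 of 9 above 0, and between the G2-EC-KO arrays, replicate 2 minus replicate 1, -0.17 to -0.14. Alternatives added after the values were seen, without control replicate 1, left 14 of 22 other macrophage, 5 of 8 fibroblast, 6 of 12 lysosome and 0 of 7 macrophage transcription factor changes above 0.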
